A study of Mus musculus with 6 samples.

Results

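The EphA receptors are a family of 9 receptor tyrosine kinase genes in the mouse files: Epha1, Epha2, Epha3, Epha4, Epha5, Epha6, Epha7, Epha8 and Epha10. They were taken by gene symbol, 9 of the 23337 symbols listed for each library. The family was chosen by the measured counts of 1 member, Epha5, which had reads in every Insm1-Het library and none in Insm1-KO, and the question was whether that pattern stood alone among its relatives. Epha5 is therefore described by its values without a test, and the fit across all genes is reported for the other 8.

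Sorted outer hair cells from E18.5 mouse cochleae gave 3 libraries labelled Insm1-Het and 3 labelled Insm1-KO. Outer hair cells are the electromotile sensory cells of the cochlea, and Insm1 encodes a zinc-finger transcription factor. Cells of both genotypes were sorted for Insm1-GFP-Cre fluorescence, so the Insm1-Het controls also carry an altered Insm1 allele and no wild-type library is part of the comparison. The labels do not state how the second allele of the Insm1-KO animals was made, nor whether a library is 1 animal or a pool, so the p-values cover the spread between 6 samples that may be technical replicates in part.

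Eph receptors bind ephrins, ligands anchored in the membrane of a neighbouring cell, and signal in both cells on contact. Receptors of the A class bind mainly ephrin-A ligands, which are held by a lipid anchor, while Epha4 also binds ephrin-B ligands, which span the membrane. The pathway is best known for repulsive guidance of growing axons and for sorting cells at tissue boundaries, and in the cochlea for guiding fibres of the spiral ganglion.

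Total counts per library ran from 10721902 to 12427039 in Insm1-Het and from 7705177 to 9748629 in Insm1-KO. Insm1-KO replicate 3 stood apart, with rank correlations across genes of 0.810 to 0.829 with the other 5 libraries, against 0.861 to 0.900 among those 5. Insm1 itself lay at 109, 116 and 69.2 TMM-scaled CPM (reads scaled to a common library total) in Insm1-Het and at 78.7, 60.3 and 18.7 CPM in Insm1-KO, so the targeted gene was still counted in every library labelled Insm1-KO and overlapped between genotypes. The hair cell label was matched by its defining markers: Pou4f3 held 1387 to 3164 reads and Myo7a 6546 to 12166 reads per library. The markers taken as defining for other cells were low, with 0 to 25 reads of Neurod1, 1 to 117 of Pou4f1 and 0 to 61 of Prph for neurons, and 0 to 28 of Pou3f4 and 0 to 79 of Tbx18 for mesenchyme, while the glial marker Sox10, which cochlear epithelium also expresses, held 262 to 1347. Other genes of the same marker lists were not low: the mesenchyme list's Pdgfra held 1575 to 4417 reads, Otor 0 to 903 and Lum 0 to 570, and the neuronal list's Nefl 2494 to 3908, Nefm 4512 to 7958 and Snap25 670 to 1825.

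Epha5 lies on the minus strand of chromosome 5, at positions 84054761 to 84417382 of GRCm38; it is protein-coding, with 19 merged exonic blocks. Epha4 lies on the minus strand of chromosome 1, from 77367185 to 77515088, with 18. The 250 bases before the start of each are printed because they stand before the receptor that had no reads in Insm1-KO and before the one with the highest level in every library. Sequences are from RefSeq on GRCm38.p6, 5′ to 3′ on the minus strand, and capitals mark the GC box, GGGCGG or its reverse complement CCGCCC.
Epha5, chr5:84417383-84417632: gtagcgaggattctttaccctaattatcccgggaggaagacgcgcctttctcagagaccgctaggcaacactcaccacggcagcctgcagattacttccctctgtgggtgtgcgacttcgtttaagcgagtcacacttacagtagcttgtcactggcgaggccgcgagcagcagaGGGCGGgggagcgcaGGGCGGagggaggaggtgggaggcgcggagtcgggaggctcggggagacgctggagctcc
Epha4, chr1:77515089-77515338: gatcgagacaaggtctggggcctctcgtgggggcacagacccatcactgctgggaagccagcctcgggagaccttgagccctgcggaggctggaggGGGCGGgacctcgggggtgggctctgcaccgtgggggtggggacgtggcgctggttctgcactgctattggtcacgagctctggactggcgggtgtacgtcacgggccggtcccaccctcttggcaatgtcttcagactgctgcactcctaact
Both windows are rich in G and C, at 62.4% for Epha5 and 66% for Epha4, where the median over 32851 promoter windows of the same length is 52.4%. The Epha5 window holds 2 GC boxes and 20 CpG dinucleotides, and the Epha4 window 1 and 14. A GC box was found on either strand in 8 of the 9 EphA genes, the exception being Epha3, and in 32.7% of all windows. The first share counts genes and the second counts windows. All EphA windows were richer in G and C than the median, at 54.4% to 84%. Whether the family differs from other genes of like composition was not tested. A match is a run of letters only, and nothing about binding was measured.

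Levels within the family spanned a wide range, and Epha4 led it in every library. To compare genes, CPM was divided by the merged exon length in kilobases. On that scale Epha4, a receptor of axon guidance in brain, limb and cochlea, stood at 51.0, 65.8 and 48.3 CPM per kb in the Insm1-Het libraries and 62.6, 45.0 and 31.2 in the Insm1-KO libraries. Every value of Epha4 lay above every value of any other member. It made up 68.5% to 90.5% of all EphA CPM per library, a share of sums that is not scaled by length.

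Epha7, a receptor of forebrain and sensory axon guidance, followed at 6.03 ± 6.04 CPM per kb in Insm1-Het (SD, n = 3), and Epha1, a receptor found mainly in epithelia, at 4.58 ± 1.82. Their ranges over the Insm1-Het libraries overlapped, so their order is not settled. Epha2, also a receptor of epithelia, was at 1.40 ± 1.39, and Epha5, a receptor of the developing nervous system, at 0.901 ± 0.823. These 2 overlapped as well, and with the coding length in place of the exon length Epha5 came before Epha2, at 4.83 ± 4.42 against 2.24 ± 2.22 CPM per kb. The merged exons of Epha5 are the longest in the family, 16739 bases, of which 3120 are coding in the longest coding transcript.

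The other 4 members had no reads in most libraries. Epha3, a receptor of neural and connective tissue, was counted in 2 libraries. Epha6, a neural receptor, had 1 read in each of Insm1-Het replicates 1 and 2, and Epha10, which lacks kinase activity, had 1 read in Insm1-Het replicate 3. Epha8, another neural receptor, had 0 reads in all 6 libraries, where 3 reads would be 0.237 to 0.391 CPM depending on the library. Such floors cover counting error only, and reads amplified without molecular identifiers can be copies of 1 molecule.

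**Figure D1:**
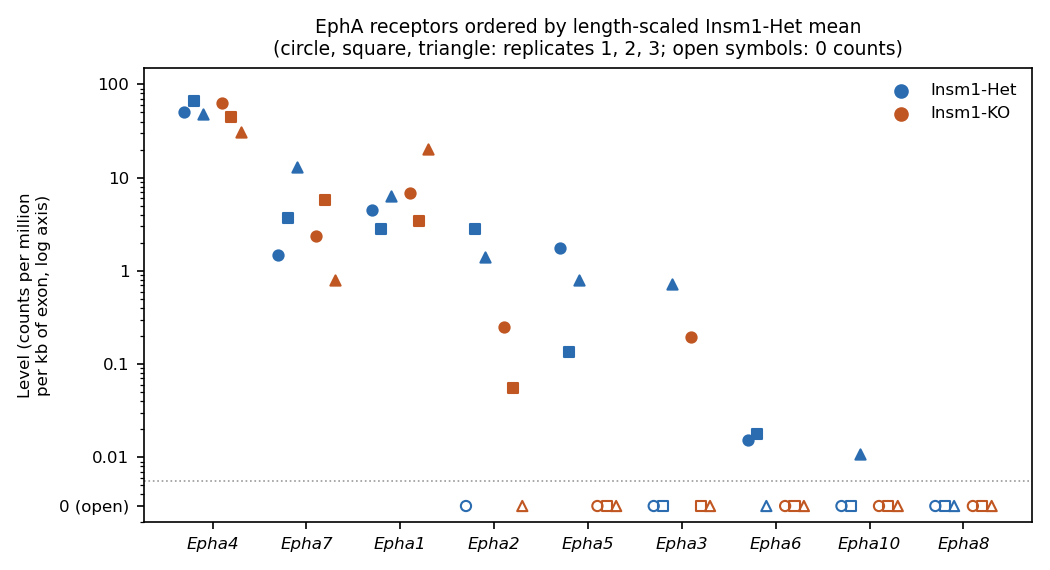
Level of each EphA receptor in CPM per kb of merged exon (log axis), 1 symbol per library, blue for Insm1-Het and orange for Insm1-KO, ordered by the Insm1-Het mean; open symbols stand for 0 reads and lie off the scale. Epha4 lies at 31.2 to 65.8 CPM per kb, above all other members, and Epha5 has open symbols in all 3 Insm1-KO libraries.

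Epha5 had 364, 24 and 169 reads in Insm1-Het replicates 1, 2 and 3, and 0 reads in each Insm1-KO library. In CPM the Insm1-Het values were 29.6, 2.25 and 13.4. The genotypes did not overlap, with every Insm1-KO library below every Insm1-Het library as in 6.1% of tested genes, but replicate 2 of Insm1-Het lay far below the other 2 Insm1-Het libraries. These values chose the family and are given as a description.

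Depth bears on the zeros as follows. At the level of Insm1-Het replicate 2, the lowest of the 3, the Insm1-KO libraries would together hold 58.5 reads of Epha5, and at that of replicate 1 they would hold 771. Against a floor of 3 reads over the Insm1-KO group, 0.115 CPM, the Insm1-Het mean was 131-fold higher. That floor covers counting error only and leaves out the spread between libraries. Such spread can be wide within a genotype: Epha2 had 0, 139 and 84 reads in Insm1-Het. The ratio also comes from the counts that chose the family, so it is a description and not a lower limit. This ratio rests in part on Insm1-Het replicate 1: it was 67.7 without that library, 186 without replicate 2 and 138 without replicate 3.

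Zeros were common at such levels, though seldom in a whole genotype. Of 2869 genes with a mean over the 6 libraries between 3.77 and 15.1 CPM, from 0.5 to 2 times that of Epha5, 603 (21.0%) had 0 reads in at least 1 library. In all 3 Insm1-KO libraries 11 of these genes (0.383%) had 0 reads, and in all 3 Insm1-Het libraries 7 (0.244%). Over all 11714 genes that passed the count filter, 10.2% had 0 reads in at least 1 library, 11 (0.0939%) had 0 reads in every Insm1-KO library and 3 (0.0256%) in every Insm1-Het library. Epha5 passed that filter only through its Insm1-Het libraries, so a difference was built into its passing.

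Reads in every Insm1-Het library with a mean of at least 5 CPM there, and none in any Insm1-KO library, were found for 7 genes. After 5930403L14Rik, at 20.9 ± 16.7 CPM in Insm1-Het (SD, n = 3), Epha5 had the highest mean, 15.1 ± 13.8. The remaining 5 were 2610028H24Rik, Exd1, Ribc1, 1700071M16Rik and Prdm16, a zinc-finger regulator of transcription, at 6.88 to 11.9 CPM. In 2610028H24Rik 1 library carried almost all reads, 379 against 2 and 1. Most reads also came from 1 library in 1700071M16Rik, 246 against 8 and 7, and in Prdm16, 224 against 29 and 6. 2610028H24Rik, 1700071M16Rik and Prdm16 did not pass the count filter. The mirror pattern, reads in every Insm1-KO library and none in Insm1-Het, was found for 2 genes, Lpar3, a lysophosphatidic acid receptor, at 11.2 ± 9.03 CPM and E130018N17Rik at 5.01 ± 3.04 CPM.

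Among 11379 tested genes with a mean of at least 2 CPM, the pattern over the 6 libraries most like that of Epha5 was that of Ribc1, a protein of ciliary microtubules, with a Pearson r of 0.995 on log2 CPM. Ribc1 held 189, 28 and 88 reads in Insm1-Het and 0 in each Insm1-KO library. Next came Irak2, a kinase of innate immune signalling (0.989), Rnps1, an RNA-binding factor of splicing (0.986), Ube2q2, a ubiquitin-conjugating enzyme (0.982), and C530005A16Rik (0.978). Irak2 stayed above 0 in Insm1-KO, at 4.56 to 6.09 CPM against 14.4 to 29.0 CPM in Insm1-Het. With 6 libraries and so many genes searched, such values of r describe these libraries only. None of the other EphA receptors that passed the count filter followed Epha5 closely. For Epha4 and Epha7 r was 0.27 each, for Epha2 0.24 and for Epha1 -0.34. Because Epha5 was chosen for its 0 reads in Insm1-KO, r in part restates the difference between genotypes and is no separate test.

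The stretch of chromosome 5 around Epha5 holds few counted genes. The nearest protein-coding neighbours in the files are Tecrl, 699566 bases away and at 0 reads in all 6 libraries, and on the other side Cenpc1, a centromere protein, 1594642 bases away. Cenpc1 had 361, 831 and 717 reads in Insm1-Het and 558, 664 and 270 in Insm1-KO, with overlap between the genotypes. Other EphA genes lie on chromosomes 1, 4, 6 and 16. Epha2, Epha7, Epha8 and Epha10 share chromosome 4, and Epha3 and Epha6 share chromosome 16.

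None of the other 8 members had every library of 1 genotype above every library of the other, though only 4 had enough reads to be tested. By edgeR's quasi-likelihood test 0 of the 11714 tested genes (0%) passed a Benjamini-Hochberg adjusted p of 0.05 in either direction, against 626 (5.34%) at an unadjusted p under 0.05 (3.19% higher and 2.15% lower in Insm1-KO). DESeq2 passed 26 genes and limma-voom 0. Of the 8 receptors, 4 passed the count filter (Epha1, Epha2, Epha4 and Epha7); 0 of these passed the adjusted threshold by any of the 3 tools, and 0 were under 0.05 unadjusted by any of them. The genotypes did not overlap in 11.2% of the tested genes, and in 0 of these 4 receptors. With so few receptors, and with 0 of all tested genes past the adjusted threshold, these zeros are not a result about the family. The median log2 fold change of the 4 receptors, Insm1-KO minus Insm1-Het, was -0.64, against 0.02 over all tested genes. All 4 had a 95% interval that holds 0, and Epha7 turned to 0.19 without Insm1-Het replicate 3. That median is therefore not a result about the family.

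Epha4 had 5047, 5656 and 4920 reads in Insm1-Het and 4724, 2779 and 2256 in Insm1-KO, or 411, 530 and 389 against 504, 362 and 251 CPM. Insm1-KO replicate 1 lay within the range of Insm1-Het, and the other 2 Insm1-KO libraries lay below it. Its log2 fold change of -0.25 had a 95% interval of -0.82 to 0.32 (adjusted p = 0.983 by edgeR's quasi-likelihood test). This interval is the narrowest in the family. Without Insm1-KO replicate 3 the value was -0.02, and without Insm1-KO replicate 1 it was -0.53.

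Epha7 was at 14.7, 36.7 and 127 CPM in Insm1-Het and at 23.3, 56.5 and 7.90 CPM in Insm1-KO. The highest value came from Insm1-Het replicate 3 and the lowest from Insm1-KO replicate 3, with the remaining 4 libraries interleaved. The log2 fold change of -1.03 had a 95% interval of -2.75 to 0.69 (adjusted p = 0.969 by edgeR's quasi-likelihood test). Without Insm1-Het replicate 3 it turned to 0.19, and without Insm1-KO replicate 3 it was -0.57.

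Epha1 showed 17.8, 11.0 and 25.2 CPM in Insm1-Het and 26.9, 13.6 and 79.7 CPM in Insm1-KO. One library, Insm1-KO replicate 3, was about 3 times as high as the next, and the others overlapped. Its log2 fold change of 1.16 had a 95% interval of -0.39 to 2.70 (adjusted p = 0.938 by edgeR's quasi-likelihood test) and was 0.18 without that library. An exon of Epha1 overlaps one of Zyx, a focal adhesion protein gene on the opposite strand, and with no strand setting given their reads cannot be told apart there. Zyx was at 55.3 to 91.2 CPM in Insm1-Het and 76.0 to 121 CPM in Insm1-KO.

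Epha2 had 0, 139 and 84 reads in Insm1-Het and 11, 2 and 0 in Insm1-KO. The higher 2 Insm1-Het libraries stood above all Insm1-KO libraries, at 13.0 and 6.64 CPM against at most 1.17, but Insm1-Het replicate 1 had none. The fitted log2 fold change of -3.73 had a 95% interval of -8.23 to 0.76 (adjusted p = 0.938 by edgeR's quasi-likelihood test). After Epha5, Epha2 was the member with the largest fitted difference, and its interval is too wide to settle a direction. Epha2 and Epha5 both had reads in Insm1-Het replicates 2 and 3, but Epha5 was highest in Insm1-Het replicate 1, where Epha2 was at 0.

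**Figure D2:**
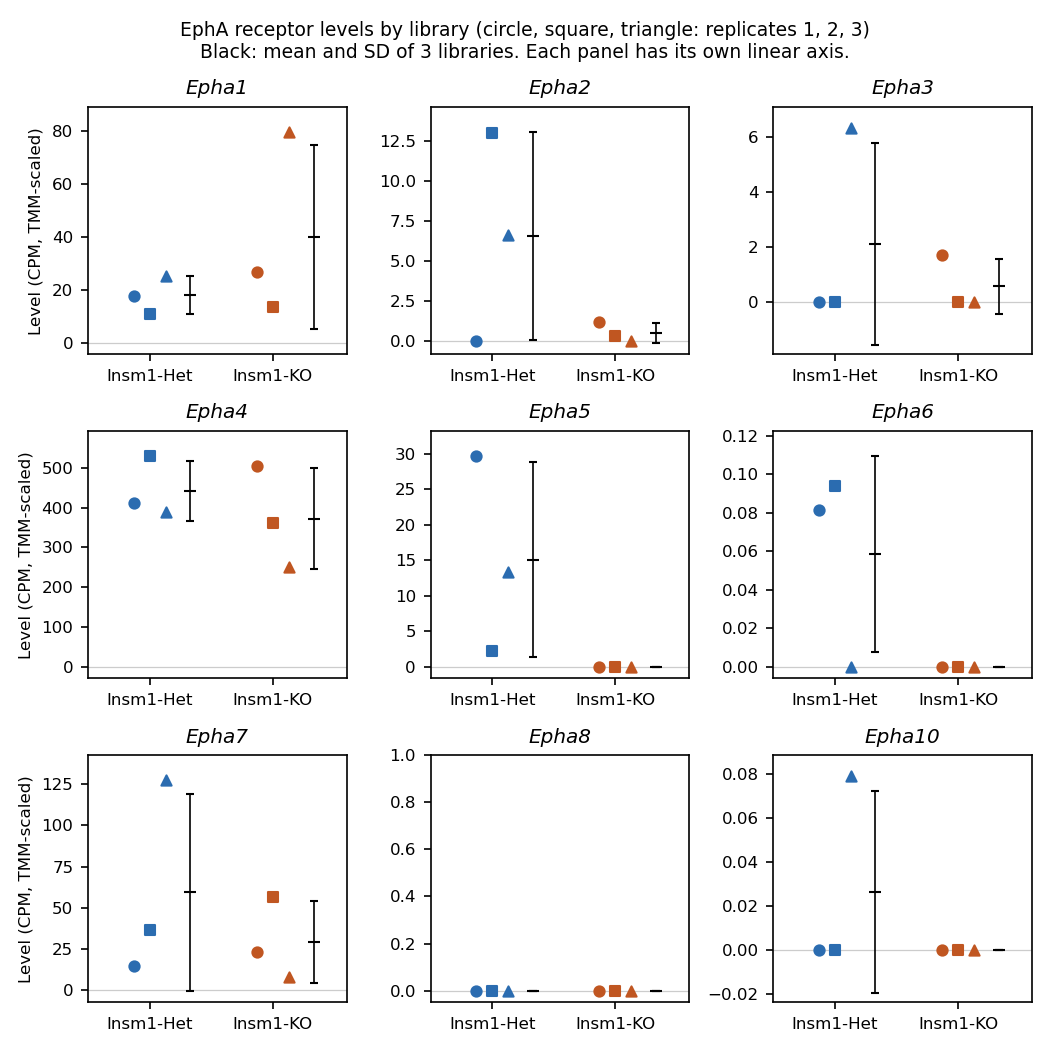
Level of each EphA receptor in CPM by library, with circles, squares and triangles for replicates 1, 2 and 3 and the mean and SD of 3 libraries in black; each panel has its own linear axis. Only Epha5 has every Insm1-Het symbol above every Insm1-KO symbol, and the Insm1-KO value of 79.7 CPM in Epha1 and the Insm1-Het value of 127 CPM in Epha7 each come from 1 library.

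Epha3 had 80 reads in Insm1-Het replicate 3 and 16 in Insm1-KO replicate 1, or 6.32 and 1.71 CPM, and 0 elsewhere. The mesenchymal factor Pou3f4 was counted in the same 2 libraries alone, with 28 and 12 reads. Tbx18, another mesenchymal factor, had 79 reads in Insm1-Het replicate 3 and 0 in the other 5 libraries. The summed level of the 11 mesenchyme markers was 243 to 508 CPM in Insm1-Het and 225 to 372 CPM in Insm1-KO, highest in Insm1-Het replicate 3 and mostly from Pdgfra (286 and 261 CPM on average), and Twist1 was at 0 throughout. Insm1-Het replicate 3 also held the most reads of Epha7, of Sox10 (1347, against 262 to 490 in the others) and of Neurod1. Not all neuronal and glial markers peaked there. Prph, also taken as defining for neurons, had 61 reads in Insm1-Het replicate 2 and 0 in Insm1-Het replicate 3. The glial marker Erbb3 had 12 reads in Insm1-Het replicate 3 and 307 in Insm1-KO replicate 3. The 10 glial markers summed to 54.8 to 129 CPM in Insm1-Het and 61.7 to 115 CPM in Insm1-KO, with Foxd3 and Cdh19 at 0. What part cells other than hair cells have in the Epha3 and Epha7 values was not tested.

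For Epha5 the libraries ran in another order. Insm1-Het replicate 1, its highest library, had 0 reads of Prph, Pou3f4 and Tbx18, 2 of Neurod1 and 6 of Pou4f1. Of the 15 neuronal markers, 9 passed the filter, 4 above 0 and 5 below 0 in log2 fold change with a median of -0.28, and 0 passed the threshold by edgeR. Their summed level was 919 to 1113 CPM in Insm1-Het and 891 to 1553 CPM in Insm1-KO, mostly from the neurofilaments Nefl, with means of 304 and 346 CPM, and Nefm, with 532 and 663 CPM. In sorted populations of this kind, fewer cells of a type and less RNA per cell cannot be told apart.

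**Figure D3:**
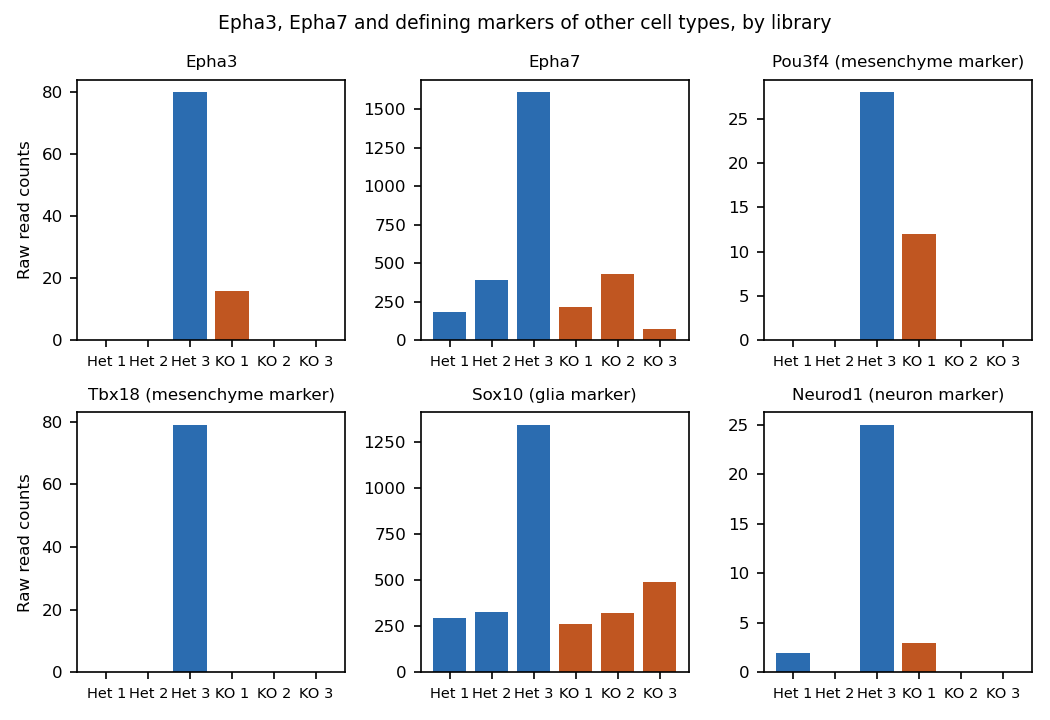
Raw read counts of Epha3, Epha7 and 4 defining markers of other cell types by library, blue for Insm1-Het and orange for Insm1-KO; each panel has its own axis from 0. Epha3 and Pou3f4 have reads only in Insm1-Het replicate 3 and Insm1-KO replicate 1, and Epha7, Tbx18, Sox10 and Neurod1 are all highest in Insm1-Het replicate 3. Markers not drawn did not all peak in that library, among them Prph and Erbb3.

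Summed over the 9 members, EphA levels were 473, 593 and 568 CPM in Insm1-Het and 557, 433 and 339 CPM in Insm1-KO. The sums overlapped. Epha4 made up most of each, while in Insm1-Het replicate 3, where its share was lowest, Epha7 added 127 CPM. The number of members with any read was 5, 6 and 7 in Insm1-Het and 5, 4 and 3 in Insm1-KO, whose libraries were also less deep. Each Insm1-Het number includes Epha5, chosen for its 0 reads in Insm1-KO, and a single read of Epha6 or Epha10. The numbers are therefore not a result about the family. Over all 23337 genes, 12673 to 13763 had any read in Insm1-Het libraries and 12126 to 12866 in Insm1-KO libraries.

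Ligands of the pathway were counted in the same libraries. Efna5, a lipid-anchored ligand that binds most EphA receptors, had the highest length-scaled level of all Eph receptors and ephrins, 168 ± 17.7 CPM per kb in Insm1-Het and 181 ± 85.8 in Insm1-KO (SD, n = 3). In CPM it was at 664, 754 and 613 in Insm1-Het and 618, 450 and 1115 in Insm1-KO, with a log2 fold change of 0.11 and a 95% interval from -0.50 to 0.71. Insm1-KO libraries held both its lowest and its highest value. Efna2, Efna3 and Efna4 were far lower, at 2.44 to 7.50 CPM per kb in Insm1-Het, and Efna1 did not pass the filter, with 0 to 6 reads per library.

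Among the transmembrane ligands, Efnb2, a ligand of EphB receptors and of Epha4, led with 24.3 ± 4.55 CPM per kb in Insm1-Het and 31.2 ± 0.576 in Insm1-KO. All 3 of its Insm1-KO values (212, 211 and 218 CPM) lay above all 3 Insm1-Het values (133, 171 and 195 CPM), as was the case for 5.08% of tested genes. The log2 fold change of 0.36 had an interval of -0.20 to 0.93 (adjusted p = 0.959 by edgeR's quasi-likelihood test). Efnb1 and Efnb3 varied widely within genotypes, from 0.214 to 13.8 and from 0 to 22.3 CPM.

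All 5 EphB receptors, the class that binds ephrin-B ligands, passed the filter. Ephb1 was the most abundant, at 123, 116 and 167 CPM in Insm1-Het and 152, 182 and 159 CPM in Insm1-KO, with a log2 fold change of 0.28 and an interval from -0.33 to 0.89. The log2 fold changes of Ephb2, Ephb3, Ephb4 and Ephb6 ran from -0.33 in Ephb3 to 1.37 in Ephb6, each with an interval that holds 0. Insm1-KO replicate 3 gave the highest value of Ephb2 (83.7 CPM, against at most 19.7 in the others) and of Ephb6 (29.3 CPM, against at most 9.83). None of the EphB receptors had 0 reads in any library. Whether Epha5 differs from the EphB class in its response was not tested.

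**Figure D4:**
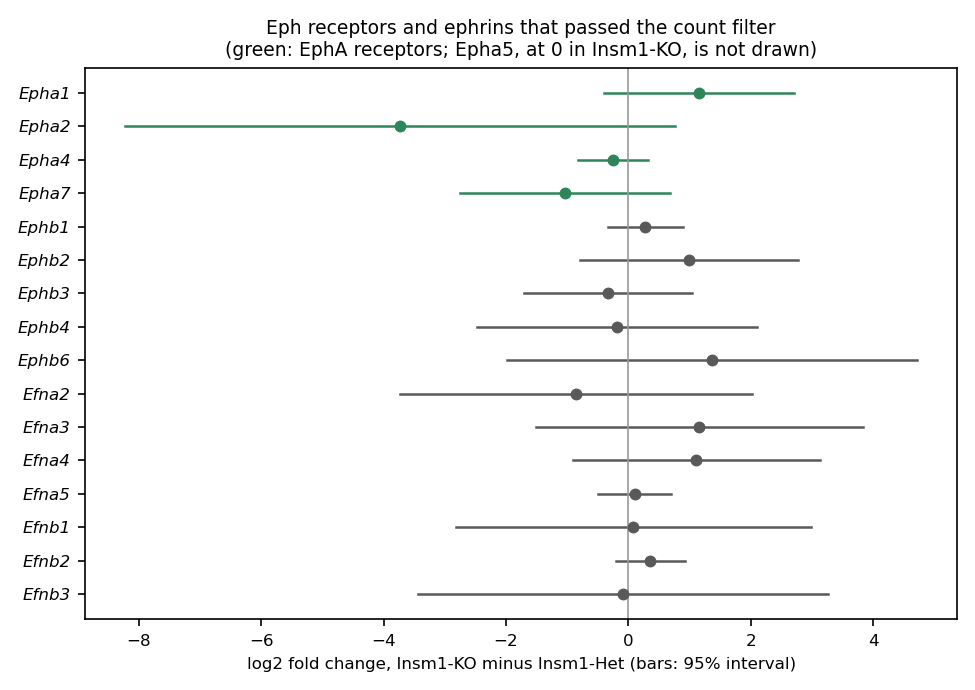
Log2 fold change, Insm1-KO minus Insm1-Het, of the EphA receptors (green), EphB receptors and ephrins (grey) that passed the count filter, with 95% intervals that include the spread between libraries. All 16 intervals hold 0, the narrow ones being those of abundant genes such as Epha4, Ephb1, Efna5 and Efnb2; Epha5 is left out, since a fitted fold against 0 reads has no interpretable size.

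Downstream of the receptors, 55 effectors were listed: exchange factors and other regulators of small GTPases, adaptors, kinases, phosphatases and the proteases that cut ephrins and Eph receptors. Of these 47 passed the filter, 0 passed the adjusted threshold in either direction, and 2 had an unadjusted p under 0.05, both higher in Insm1-KO; that share is below the 5.34% of all tested genes and is not a result about the effectors. These were Rac1, a small GTPase of the actin cytoskeleton, at 259 ± 58.2 CPM in Insm1-Het and 380 ± 83.4 CPM in Insm1-KO (log2 fold change 0.55), and Ptpn1, a tyrosine phosphatase, at 29.6 ± 9.12 and 86.1 ± 73.0 CPM (1.54). Both overlapped between genotypes, and Ptpn1 reached 166 CPM in Insm1-KO replicate 3.

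By mean level in Insm1-Het, the leading effectors were Adam10, a protease that sheds ephrins, at 536 ± 26.0 CPM against 510 ± 91.8 CPM in Insm1-KO, and Grb10, an adaptor of receptor kinases, at 415 ± 86.0 against 552 ± 17.5 CPM. Cblb, a ubiquitin ligase, was at 381 ± 78.5 against 347 ± 85.8 CPM and the GTPase Cdc42 at 335 ± 18.7 against 416 ± 34.5 CPM (SD, n = 3 each). In Grb10 and Cdc42 every Insm1-KO library lay above every Insm1-Het library, as in 5.08% of tested genes, while Adam10 and Cblb overlapped. Over all 59 tested EphB, ephrin and effector genes, 35 lay above 0 and 24 below 0 in log2 fold change. The median was 0.16, against 0.02 over all tested genes, and 0 of the 59 passed by edgeR, DESeq2 or limma-voom.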

How the data were processed

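RNA depleted of ribosomal RNA was sequenced from 6 libraries, 3 per genotype. Each library has 1 file of raw counts by gene symbol, as deposited by the authors. Trimmomatic, STAR, HTSeq and the build GRCm38 (mm10) are named in the submitters' processing notes. Versions, annotation, strand setting and treatment of multiply mapped reads: not given in the sources used here. Genes were kept by filterByExpr (minimum count 10, minimum total 15), which left 11714; the removed genes held 0.274% of counts. Counts were scaled by TMM and fitted with edgeR 4.0.16 (glmQLFit and glmQLFTest, genotype as the only term, Benjamini-Hochberg over all tested genes, threshold 0.05). DESeq2 1.42.0 and limma 3.58.1 (voom) were alternatives. Intervals are 95% t intervals, with the SE derived from F. Log2 CPM used a prior count of 2. The fit was tested on counts simulated at set spreads, which were not estimated from these libraries.

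Gene positions, exon and coding lengths came from GENCODE M21 on GRCm38, and promoters from RefSeq on GRCm38.p6; all 9 symbols matched both. The longest GENCODE coding sequence stood in for the protein length planned for the coding-length alternative. The members and lists were chosen with earlier results of these data known. Named were all Eph receptors and ephrins, the 4 most abundant effectors and those with unadjusted p under 0.05, the 5 genes most correlated with Epha5, and genes counted in 1 genotype alone. The marker genes and Cenpc1, Tecrl and Zyx were named outside that rule, and 1 marker is not reported here. Same-numbered libraries did not deviate together, and no 2 libraries agreed within sampling noise.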

Additional observations from a re-analysis of the deposited data

How the results depend on the processing

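The count of EphA receptors other than Epha5 past the threshold was 0 in each of the 15 alternatives run, and so was the count of other Eph pathway genes. Over all genes the count was 0 by edgeR, 26 by DESeq2, 67 with no filter, 1 with the replicate block and 1 in the newer form of the edgeR fit, an alternative chosen after the data were seen; it was 0 in the other 11 alternatives, leaving out each library included. The replicate numbers are not said to pair libraries: deviations of same-numbered libraries correlated at 0.0101, 0.0073 and 0.0144, not every library correlated best with its own number, and the block changed no other call. Over the alternatives the log2 fold change ran from 0.18 to 1.58 for Epha1, -5.57 to -2.36 for Epha2, -0.53 to -0.02 for Epha4 and -1.93 to 0.19 for Epha7. Epha7 alone changed sign, to 0.19 without Insm1-Het replicate 3, and the cause was not tested. A filter of 5 CPM in 3 libraries removed Epha2 and Epha5. Epha6, Epha8 and Epha10 hold at most 1 read per library, so a difference was not detectable at this depth; Epha3 was at 0 in 4 libraries and was not tested in the main fit.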
